A study of Homo sapiens with 12 samples.

Results

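The 48 genes described here belong to the type I interferon response. They were chosen by symbol, as a list of receptors, transcription factors, sensors and induced antiviral genes, and all 48 were found in both deposited RNA-seq tables, which list 16848 genes for clone 2 and 15612 genes for clone 1. The cells were RCH-ACV, an established human B-cell precursor acute lymphoblastic leukemia (BCP-ALL) line that expresses the pre-B-cell receptor (pre-BCR). Both clones were grown as a dasatinib-resistant subline, kept in rising concentrations of the multi-kinase inhibitor dasatinib up to 1 µM, and as a dasatinib-sensitive counterpart in 0.1% DMSO, the vehicle. Each of the 4 sublines was sequenced in 3 libraries, 12 in all. All cells of a clone come from a single line. The library titles carry a code with the letter A for clone 1 and B for clone 2, and the labels do not say what the letter stands for.

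The value used throughout is the authors' mean normalized count, averaged by the authors over the 6 libraries of a clone, 3 resistant and 3 sensitive. It gives how strongly a gene was expressed in a clone but cannot be split into resistant and sensitive cells, and it carries no SD and no n. Differences between sublines are therefore not given here, and the values below are descriptions without a test. Per-library depth is unknown. The means of all genes added up to 24561485 in clone 2 and to 19108037 in clone 1, and the median gene had 442 in clone 2 and 406 in clone 1. To set genes side by side, each mean was divided by the length of the longest annotated transcript in kilobases (kb), and each gene was given a percentile, the share of genes in the same table with a lower value per kb.

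Type I interferons are secreted proteins that almost every cell type can make and sense during viral infection. They bind the receptor pair IFNAR1 and IFNAR2, whose kinases JAK1 and TYK2 phosphorylate STAT proteins, STAT2 among them. STAT2 and IRF9 are subunits of the complex ISGF3, which binds the interferon-stimulated response element (ISRE) in the promoters of interferon-stimulated genes. Their products block viral entry, translation and replication. Many of these genes are also transcribed at a low level without interferon.

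The ISRE core was read in the promoters, since ISGF3 binds this element in interferon-stimulated genes. The list also holds receptors and factors that need not respond through it. The core was searched on both strands as GAAA, any 2 bases, GAAA. Promoters came from RefSeq (GRCh38.p14) as windows of 300 bases, 250 before and 50 after an annotated start, and 37 of the 48 genes had at least 1 window. DDX58 was matched under its current symbol RIGI. No window was matched for IFIT2, IFITM2, MX2, OAS2, OASL, IRF3, IRF7, TRIM22, USP18, IFNAR2 and PML. An ISRE core was held by 22 of the 37 genes, or 59.5% (95% exact binomial interval 42.1 to 75.2%). The interval takes the genes as independent draws, which a chosen list with gene families and a core shared by PARP9 and DTX3L is not. Over all 27305 genes with a window the share was 4.38%, or 1195 genes. The list was drawn up as genes of the type I interferon response, so no test was run on this difference.

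The 9 stretches below were chosen to show how the cores were arranged in members of different families. Each is given 5′ to 3′ on the strand of its gene with 15 bases on either side of the outer cores, and capitals mark the ISRE cores. Cores on the other strand therefore read TTTC, any 2 bases, TTTC. The stretches lie at chr10:89392492-89392544 (+) for IFIT1, chr10:89327826-89327899 (+) for IFIT3, chr1:1013369-1013414 (+) for ISG15, chr19:17405730-17405775 (-) for BST2, chr4:88456979-88457069 (+) for HERC5, chr1:27672261-27672363 (-) for IFI6, chr14:94110613-94110665 (+) for IFI27, chr1:78620269-78620399 (+) for IFI44L and chr3:122564317-122564356 (-) for PARP9.
IFIT1: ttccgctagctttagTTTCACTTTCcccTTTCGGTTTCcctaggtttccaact
IFIT3: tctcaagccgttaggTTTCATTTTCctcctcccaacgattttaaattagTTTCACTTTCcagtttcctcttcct
ISG15: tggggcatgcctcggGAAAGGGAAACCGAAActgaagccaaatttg
BST2: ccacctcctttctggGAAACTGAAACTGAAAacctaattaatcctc
HERC5: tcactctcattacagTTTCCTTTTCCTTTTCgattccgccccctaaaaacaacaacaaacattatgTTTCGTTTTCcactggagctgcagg
IFI6: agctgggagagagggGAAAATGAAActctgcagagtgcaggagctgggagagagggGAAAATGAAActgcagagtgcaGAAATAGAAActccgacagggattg
IFI27: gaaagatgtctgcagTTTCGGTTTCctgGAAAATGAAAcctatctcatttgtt
IFI44L: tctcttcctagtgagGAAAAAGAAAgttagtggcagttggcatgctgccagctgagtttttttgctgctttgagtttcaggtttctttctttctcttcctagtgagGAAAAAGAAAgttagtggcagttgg
PARP9: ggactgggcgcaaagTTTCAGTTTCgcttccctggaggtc

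In ISG15, BST2 and HERC5 a pair of cores overlapped by 4 bases, so that 3 blocks of GAAA followed each other with 2 bases between neighbours, and the same arrangement was found in IFIH1. In IFIT1 and IFI27 the pair of cores began 13 bases apart, on 1 strand in IFIT1 and on opposite strands in IFI27. IFI6 held 3 cores, and the first and second of them sit in the same longer stretch, which is repeated in this promoter. In IFI44L the stretch around the first core is likewise repeated around the second, 91 bases further on. The core of PARP9 is also the core of DTX3L, which is transcribed in the opposite direction from the neighbouring start. It lies at chr3:122564332-122564341, before the start of PARP9 and across the start of DTX3L.

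Over all 22 genes there were 42 cores at distinct positions, and 15 genes held 2 or more. HERC5, IFI6, IFIH1 and IFIT5 each held 3 cores in 1 window. The windows reached from 250 bases before to 50 after the start, which limits where a core could be found (plot of core positions). Of the 42 cores, 38 ended before the start, all 38 of these within 200 bases. The median first base was at -94.5, where -1 is the base before the start. Whether cores lay closer to the start than the window alone would give was not tested. For genes with several windows each site was counted once, in the window with the lowest coordinate. The 2 free bases of the core, read on the strand that holds it, were CT at 12 of the 42 member sites (28.6%) and CC at 7 (16.7%). Among all 1261 sites found in the windows of all genes, CT made up 6.90% and CC 2.46%. The combination AA, as in IFI44L, was found at 2 member sites (4.76%), both of that gene, and at 16.7% of all sites.

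**Figure D1:**
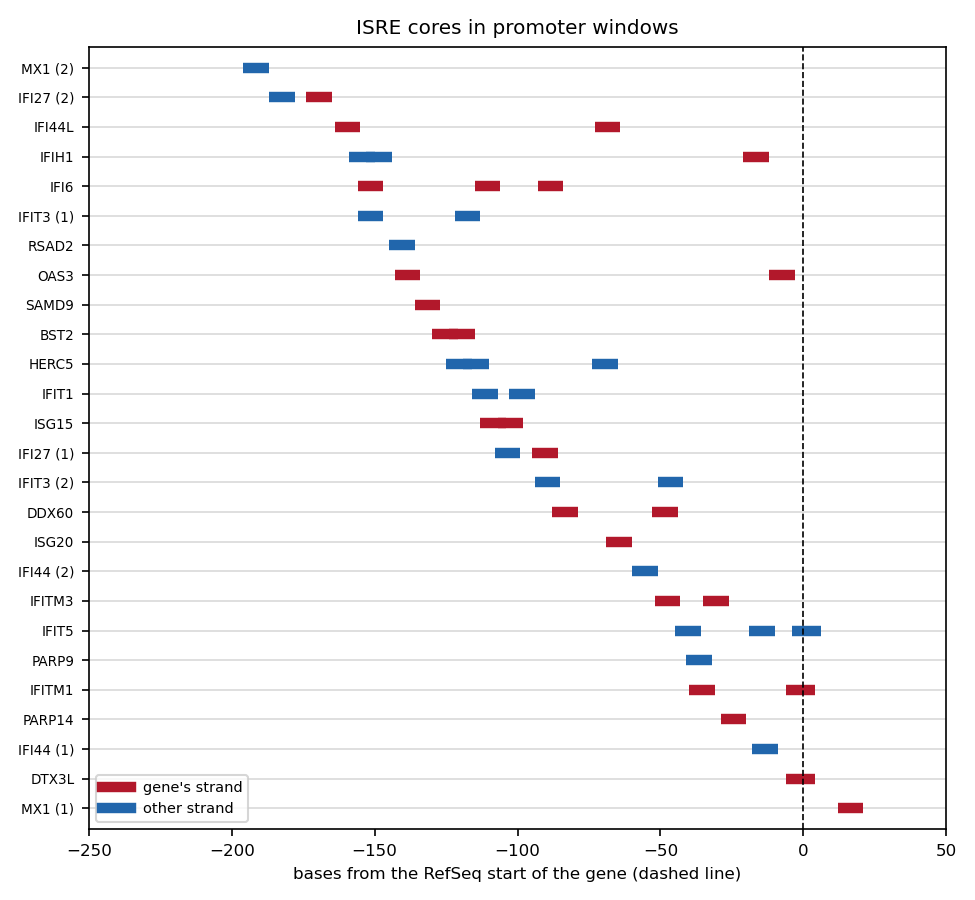
ISRE cores in the promoter windows of the 22 genes that hold one. The x axis gives the distance in bases from the RefSeq start (dashed line), each row is a window (numbered where a gene has several with a core), and the blocks are cores on the strand of the gene (red) or on the other strand (blue); most cores lie within 200 bases before the start, and MX1 holds the core farthest into a transcript, with its first base at 12, and the one farthest before a start, at -196.

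The gamma-activated site (GAS), an element of the interferon-γ response, was searched as TTCNNNGAA, which reads the same on both strands. It was found in 11 of the 37 genes (29.7%) and in 9.38% of all genes with a window. These were IFI27, IFI35, IFITM1, MX1, OAS1, IRF1, IRF9, DDX60, SP110, PARP14 and BST2. At 4 of the 12 GAS positions, in BST2, IFI27, IFITM1 and MX1, the GAS overlapped an ISRE core, so these matches are not separate sequences. A TATA box, searched as TATAAA on both strands, was found in IFI27, IFI44, IFIT3, RSAD2 and ADAR, or 13.5% of the members against 14.0% of all genes with a window, and none overlapped an ISRE core. A match is a description of the letters in the window and no evidence that a factor was bound in RCH-ACV cells.

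In the cells the 48 genes were nearly all transcribed, at middling to low levels. A mean of at least 10 normalized counts was reached by 46 of the 48 genes in clone 2 and by 46 of the 48 in clone 1. Over all genes this mean was reached by 84.8% in clone 2 and by 89.6% in clone 1. OASL and IFI44L were the 2 genes below 10 in both clones. Per kb, the median percentile of the 48 genes was 47.5 in clone 2 and 41.7 in clone 1. More genes are listed for clone 2, so percentiles are not on the same scale in both clones. Ranked among the genes listed for both clones only, the median was 43.3 in clone 2 and 41.6 in clone 1. The 48 genes spread over nearly the whole range of the tables (histogram of levels): 8 were above the 75th percentile in clone 2 and 8 in clone 1, whereas 8 were below the 25th in clone 2 and 13 in clone 1. Together they made up 0.163% of the summed means in clone 2 and 0.163% in clone 1. ADAR alone supplied 27.9% of that sum in clone 2 and 28.5% in clone 1.

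**Figure D2:**
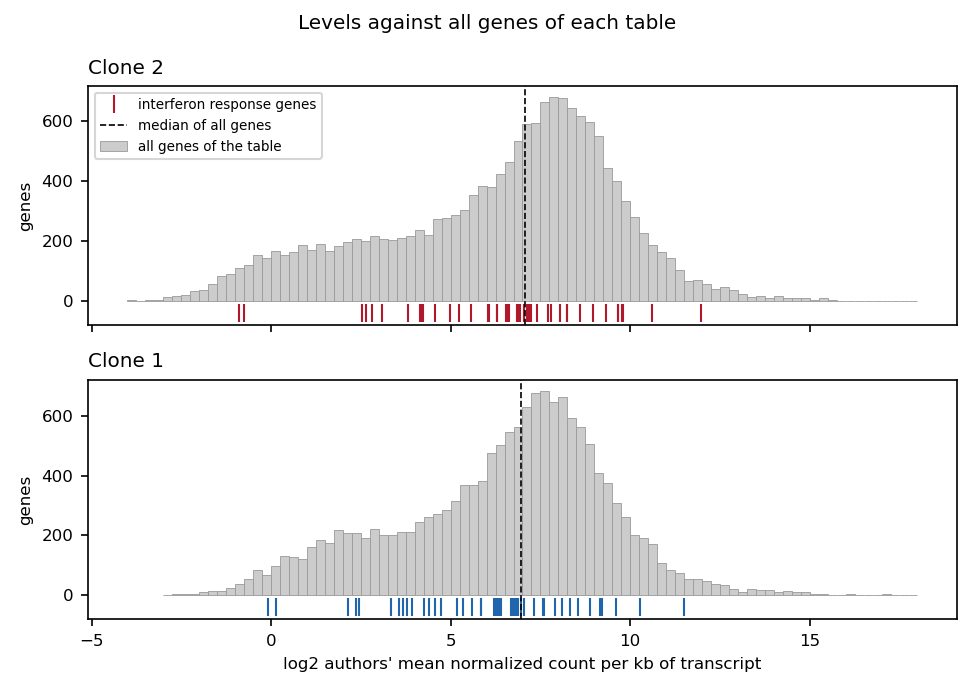
Levels of the 48 interferon response genes against all genes of each table, clone 2 above clone 1. Grey bars count genes by the log2 of the authors' mean normalized count per kb of transcript, coloured ticks below the axis mark the 48 genes, and the dashed line is the median of all genes; the ticks run from genes near the lower end, OASL and IFI44L, to IFITM2 at percentile 98.1 in clone 2 and 97.7 in clone 1.

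The highest values per kb among the 48 genes were those of IFITM2, ADAR and BST2, in this order in both clones. IFITM2, a membrane protein that hinders the fusion of enveloped viruses with endosomes, had a mean of 3550 in clone 2 and 2566 in clone 1, or 3980 per kb in clone 2 and 2877 per kb in clone 1. ADAR, which converts adenosine to inosine in double-stranded RNA, had the largest mean, 11185 in clone 2 and 8851 in clone 1, and 1573 per kb in clone 2 and 1245 per kb in clone 1. It stood at percentile 94.2 in clone 2 and 93.8 in clone 1. ADAR is transcribed from a constitutive promoter as well as an interferon-inducible one, and the tables do not separate the transcripts. BST2 (tetherin), which holds budding virions at the cell surface, had a mean of 910 in clone 2 and 785 in clone 1, and 893 per kb in clone 2 and 771 per kb in clone 1. Next per kb came TRIM22 in clone 2, at 873 (588 in clone 1), and IFITM1 in clone 1, at 592 (808 in clone 2).

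The lowest means were those of OASL, IFI44L and IFI27. OASL, an OAS-like protein that binds the RNA sensor RIG-I, had a mean of 1.76 in clone 2 and 3.57 in clone 1. IFI44L, a gene used in blood interferon signatures, had a mean of 3.45 in clone 2 and 5.50 in clone 1, at percentile 2.82 per kb in clone 2 and 1.78 in clone 1. IFI27, a mitochondrial protein that rises strongly in blood during viral infection, had a mean of 14.1 in clone 2 and 10.7 in clone 1. USP18, the ISG15 protease that also damps IFNAR2 signaling, came next in clone 2 with a mean of 14.997 (21.4 in clone 1). RSAD2 (viperin), an enzyme that makes a chain-terminating nucleotide, came next in clone 1 with a mean of 19.2 (30.1 in clone 2). Of these low genes, IFI44L, IFI27 and RSAD2 each held an ISRE core, and OASL and USP18 had no promoter window to search.

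**Figure D3:**
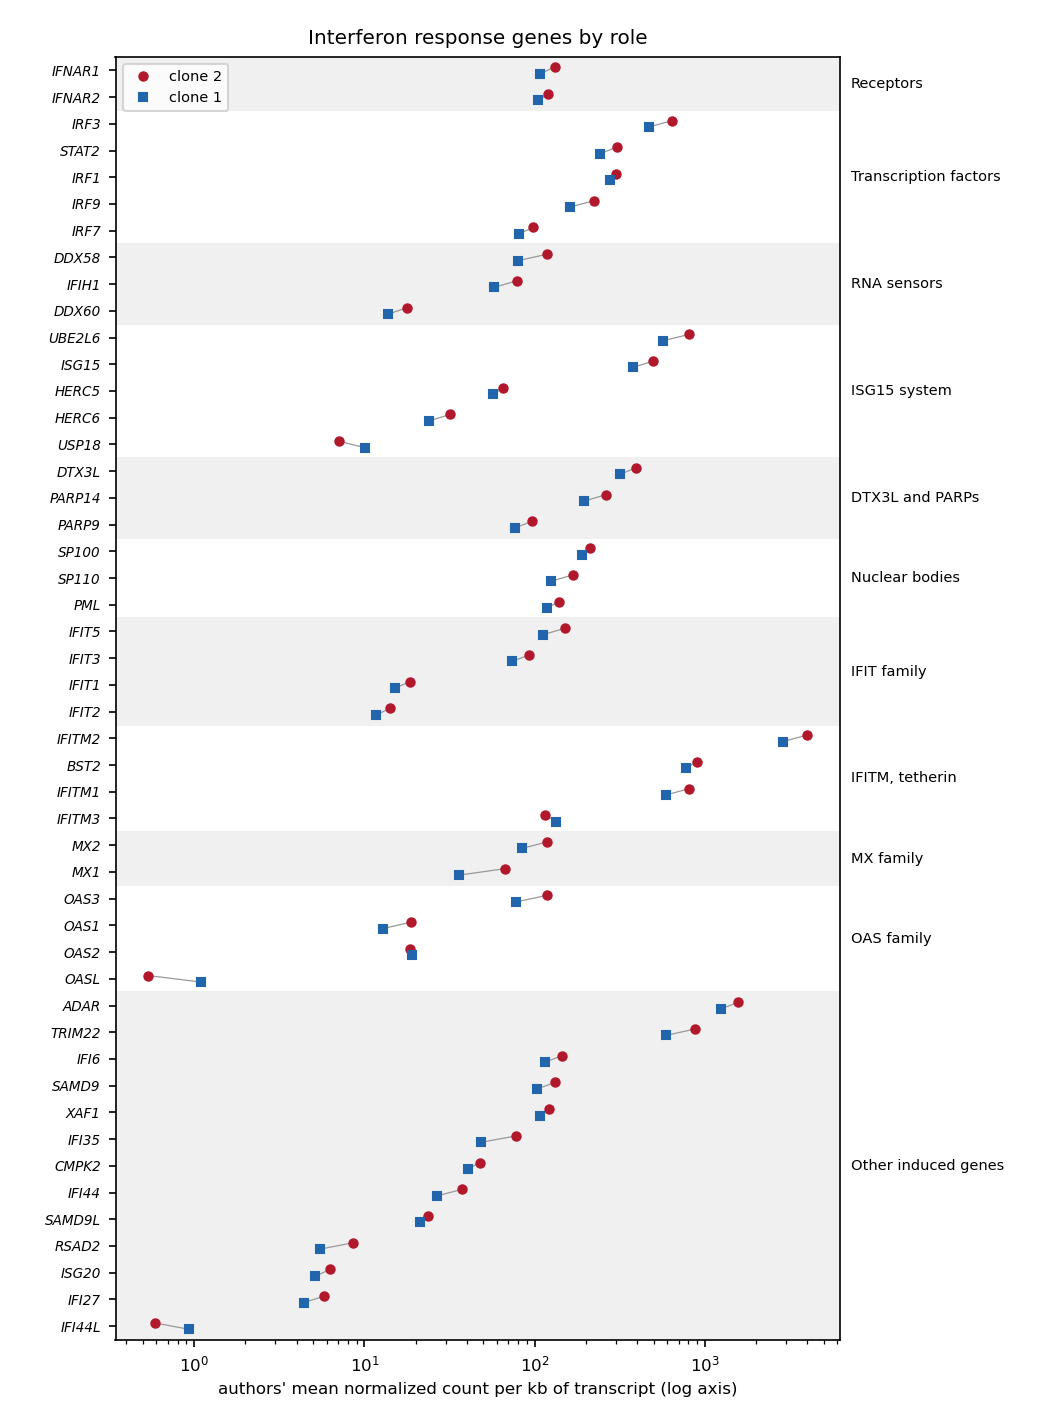
Levels of the 48 genes by role. Each row is a gene, the x axis (log scale) is the authors' mean normalized count per kb of the longest transcript, red circles are clone 2 and blue squares clone 1, each a single mean over 6 libraries with no error; roles differ by their medians, with the IFITM genes and tetherin high (850 in clone 2 and 681 in clone 1) and the OAS family low (18.6 in clone 2 and 16.0 in clone 1).

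At the top of the pathway, both receptor chains were expressed at like levels. IFNAR1 had a mean of 804 in clone 2 and 662 in clone 1, or 131 per kb in clone 2 and 108 per kb in clone 1. IFNAR2 had a mean of 515 in clone 2 and 450 in clone 1, or 120 per kb in clone 2 and 105 per kb in clone 1. The ratio of IFNAR1 to IFNAR2 per kb was 1.09 in clone 2 and 1.03 in clone 1, and both stood just below the median of all genes.

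Of the transcription factors, 4 of 5 were above the 50th percentile per kb in both clones, and the median of the 5 was percentile 68.5 in clone 2 and 66.6 in clone 1. IRF3, the factor that starts interferon transcription after viral sensing, was the highest, with a mean of 1845 in clone 2 and 1343 in clone 1 (percentile 84.3 in clone 2 and 81.7 in clone 1). STAT2, the ISGF3 subunit specific to type I and type III interferon signaling, had a mean of 994 in clone 2 and 789 in clone 1. IRF9, the DNA-binding subunit of ISGF3, had 410 in clone 2 and 294 in clone 1. IRF1, which is itself induced by interferon, had a mean of 1557 in clone 2 and 1427 in clone 1. IRF7, the factor that amplifies interferon-α transcription, was the lowest of the 5 per kb, with a mean of 201 in clone 2 and 165 in clone 1 (percentile 44.4 in clone 2 and 41.3 in clone 1).

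The cytosolic RNA sensors were below the median of all genes per kb. DDX58, which encodes RIG-I, had a mean of 515 in clone 2 and 349 in clone 1. IFIH1, which encodes MDA5, the sensor of long double-stranded RNA, had 282 in clone 2 and 208 in clone 1. DDX60, a helicase linked to RIG-I signaling, had 108 in clone 2 and 83.9 in clone 1, and stood at percentile 24.8 per kb in clone 2 and 19.5 in clone 1.

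ISG15 is a ubiquitin-like protein that is attached to other proteins by a cascade of enzymes, and the genes of this system were expressed at very unequal levels. UBE2L6, the conjugating enzyme, had a mean of 1273 in clone 2 and 891 in clone 1, or 809 per kb in clone 2 and 566 per kb in clone 1. ISG15 itself had a mean of 392 in clone 2 and 296 in clone 1, and because its transcript is short, 498 per kb in clone 2 and 376 per kb in clone 1. It stood at percentile 79.4 in clone 2 and 77.3 in clone 1. HERC5, the main ISG15 ligase in human cells, had a mean of 229 in clone 2 and 201 in clone 1, and its neighbour HERC6 had 121 in clone 2 and 90.2 in clone 1. USP18, which removes ISG15 from its targets, was the lowest of the system, at 7.04 per kb in clone 2 and 10.1 per kb in clone 1. UBE2L6 exceeded USP18 per kb by 115-fold in clone 2 and 56.3-fold in clone 1.

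DTX3L, PARP9 and PARP14 are neighbours on chromosome 3, and DTX3L, a ubiquitin ligase, acts in a complex with PARP9. DTX3L had a mean of 2294 in clone 2 and 1862 in clone 1, or 391 per kb in clone 2 and 317 per kb in clone 1. PARP14, an ADP-ribosyltransferase, had a mean of 2209 in clone 2 and 1651 in clone 1, or 262 per kb in clone 2 and 196 per kb in clone 1. PARP9 had a mean of 653 in clone 2 and 518 in clone 1, or 96.5 per kb in clone 2 and 76.6 per kb in clone 1. DTX3L exceeded PARP9 per kb by 4.05-fold in clone 2 and by 4.14-fold in clone 1. The core printed above for PARP9 is the one shared with DTX3L, and its part in these levels was not tested.

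The genes of nuclear bodies stood near the middle of the table. SP100, a PML body component, had a mean of 820 in clone 2 and 733 in clone 1. Its neighbour SP110 had 460 in clone 2 and 340 in clone 1. PML, the scaffold of these bodies, had 752 in clone 2 and 637 in clone 1. Per kb the 3 genes lay between percentiles 50.9 and 59.9 in clone 2, and between 49.0 and 60.4 in clone 1.

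The IFIT genes, whose products bind RNA without the host cap structure and block its translation, lie side by side on chromosome 10. IFIT5 was the highest, with a mean of 607 in clone 2 and 449 in clone 1, or 151 per kb in clone 2 and 112 per kb in clone 1. IFIT3 had a mean of 232 in clone 2 and 184 in clone 1. IFIT1 had 85.5 in clone 2 and 69.6 in clone 1. IFIT2 was the lowest, with 52.5 in clone 2 and 43.4 in clone 1, and IFIT5 exceeded it per kb by 10.7-fold in clone 2 and 9.55-fold in clone 1. The order was the same in both clones. IFIT1, IFIT3 and IFIT5 each held 2 or more ISRE cores, and no window was matched for IFIT2. A link between the cores and the levels was not tested.

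The IFITM genes on chromosome 11 differed more. IFITM1, found mainly at the plasma membrane, had a mean of 691 in clone 2 and 506 in clone 1. IFITM3, an endosomal restriction factor of influenza virus, had 93.3 in clone 2 and 107 in clone 1, or 115 per kb in clone 2 and 133 per kb in clone 1. IFITM2 exceeded IFITM3 per kb by 34.5-fold in clone 2 and 21.7-fold in clone 1. These 3 values are uncertain, because the transcripts are partly alike. Of the 50-base stretches of the IFITM1 transcript, 39.0% also occurred in a transcript of IFITM2, and in the other 5 directions between IFITM1, IFITM2 and IFITM3 the share ran from 5.93 to 14.4%. How reads that match several of them were assigned is not given in the sources used here. Among the 40 directed pairs compared in 8 families, the 1 other pair with a shared stretch was MX1 in MX2, at 0.555%.

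The MX proteins are dynamin-like GTPases that trap viral nucleocapsids. MX2, active against HIV-1, had a mean of 480 in clone 2 and 341 in clone 1. MX1, active against influenza virus, had 231 in clone 2 and 125 in clone 1. MX2 exceeded MX1 per kb by 1.78-fold in clone 2 and by 2.33-fold in clone 1.

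The OAS enzymes sense double-stranded RNA and make 2′-5′-linked oligoadenylate, a second messenger of the antiviral response. OAS3 was the highest of the cluster on chromosome 12, with a mean of 789 in clone 2 and 524 in clone 1, or 117 per kb in clone 2 and 78.0 per kb in clone 1. OAS1 had a mean of 45.3 in clone 2 and 31.1 in clone 1, and OAS2 had 87.5 in clone 2 and 90.6 in clone 1. Per kb, OAS1 and OAS2 were close in clone 2 (18.7 for OAS1 and 18.5 for OAS2) and farther apart in clone 1 (12.9 for OAS1 and 19.1 for OAS2). OAS3 exceeded the lowest gene of the cluster by 6.36-fold in clone 2 and 6.07-fold in clone 1.

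The remaining induced genes spanned 2675-fold per kb in clone 2 and 1330-fold in clone 1, from IFI44L to ADAR. TRIM22, a ring finger protein with antiviral activity, had a mean of 2610 in clone 2 and 1757 in clone 1. SAMD9, which restricts poxviruses, had 902 in clone 2 and 708 in clone 1, and its neighbour SAMD9L had 168 in clone 2 and 151 in clone 1. SAMD9 exceeded SAMD9L per kb by 5.60-fold in clone 2 and 4.87-fold in clone 1. XAF1, a pro-apoptotic partner of XIAP, had 442 in clone 2 and 387 in clone 1. IFI6, an ER protein that hinders flaviviruses, had 122 in clone 2 and 96.7 in clone 1. CMPK2, a mitochondrial nucleotide kinase, had 137 in clone 2 and 117 in clone 1, and exceeded its neighbour RSAD2 per kb by 5.54-fold in clone 2 and 7.42-fold in clone 1.

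IFI35, a leucine zipper protein, had a mean of 96.4 in clone 2 and 60.1 in clone 1. IFI44 had 63.4 in clone 2 and 45.2 in clone 1. ISG20, a 3′-5′ exonuclease, had 35.5 in clone 2 and 29.03 in clone 1. IFI44 exceeded the adjacent IFI44L per kb by 63.9-fold in clone 2 and 28.6-fold in clone 1. Per kb this was the widest gap among the gene neighbours compared. It rests on IFI44L means of 3.45 in clone 2 and 5.50 in clone 1, below the limit on low values. It also rests on unequal lengths, 5874 bases for IFI44L and 1687 bases for IFI44. Without division by length, IFITM2 and IFITM3 lay farther apart in both clones. IFITM2 had a mean of 3550 in clone 2 and 2566 in clone 1, and IFITM3 had 93.3 in clone 2 and 107 in clone 1.

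Among the 37 genes with a promoter window, levels were set side by side with and without an ISRE core, as a description with no test. The 22 genes with a core had a median percentile per kb of 43.8 in clone 2 and 39.9 in clone 1, from 2.82 to 88.9 in clone 2 and from 1.78 to 89.4 in clone 1. The 15 genes with a window and no core had a median of 49.6 in clone 2 and 47.1 in clone 1, from 25.2 to 94.2 in clone 2 and from 18.9 to 93.8 in clone 1. The 2 sets overlap over most of their range. The genes without a core were IFI35, OAS1, STAT2, IRF1, IRF9, DDX58, HERC6, SP100, SP110, XAF1, SAMD9L, ADAR, IFNAR1, CMPK2 and UBE2L6. An element with other letters or outside the window was not counted, so these genes are not shown to lack an ISRE.

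The clones were then set against each other through the log2 ratio of the clone 2 mean over the clone 1 mean. The tables were normalized separately and the letter in the library titles goes with the clone. A difference between clones and one from any batch behind the letter therefore cannot be told apart. Over the 13917 genes with a mean of at least 10 in both tables, the median ratio was 0.37 on the log2 scale, or 1.29-fold, and it was subtracted from every gene. After this, all genes had quartiles of -0.10 and 0.10. A ratio above 1 was found for 118 genes, or 0.848%, and a ratio below -1 for 96 genes, or 0.69%. None of the 46 interferon response genes with a ratio was beyond 1 in either direction (0 higher and 0 lower). Their median was -0.02, and 21 were above and 25 below the median of all genes. With 1 mean per clone, none of these ratios was tested.

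**Figure D4:**
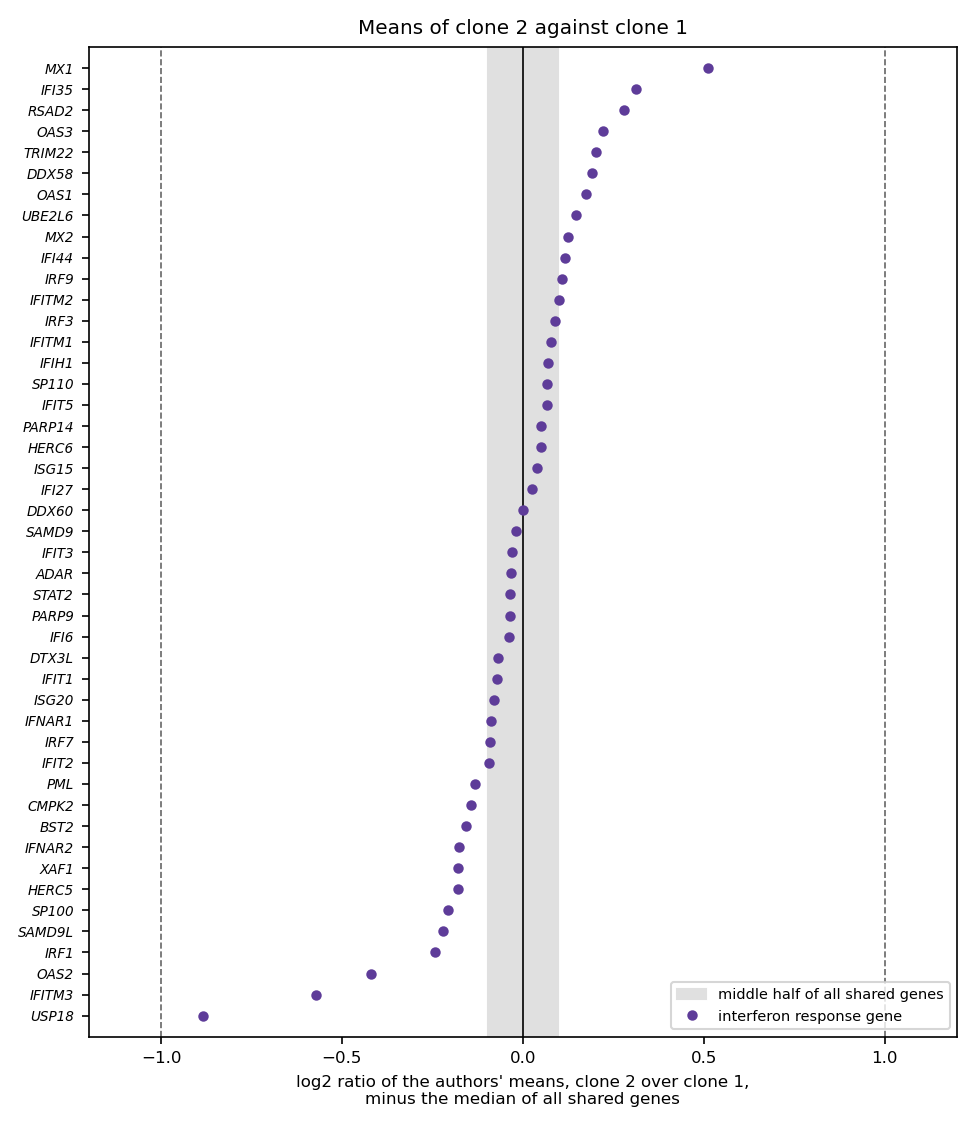
Log2 ratio of the authors' means, clone 2 over clone 1, for the 46 genes with a mean of at least 10 in both tables, after subtraction of the median of all shared genes. Points are single values with no error, the grey band holds the quartiles of all shared genes (-0.10 to 0.10) and dashed lines mark ratios of -1 and 1; the points run from USP18 at -0.88 to MX1 at 0.51, and none lies beyond the dashed lines.

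MX1 was the gene with the largest ratio, 0.51, at percentile 96.7 of all shared genes. IFI35 followed at 0.31 and RSAD2 at 0.28, then OAS3 at 0.22 and TRIM22 at 0.20. At the other end USP18 had a ratio of -0.88, at percentile 0.913 of all shared genes, from means of 14.997 in clone 2 and 21.4 in clone 1. IFITM3 had -0.57 and OAS2 -0.42, the 2 genes besides USP18 above the limit of 10 whose mean was lower in clone 2 before the median was subtracted. In the OAS family OAS1 was at 0.17 and OAS3 at 0.22 beside OAS2, and IFITM2 was at 0.10 and IFITM1 at 0.08 beside IFITM3, whose counts are uncertain for the shared sequence given above. The 4 IFIT genes lay between -0.09 and 0.07. MX2, at 0.12, had the same sign as MX1, and IFNAR1, at -0.09, the same sign as IFNAR2, at -0.18.

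The 8 interferon genes looked for were nearly all unlisted. Of these, IFNB1, IFNA1, IFNA2, IFNE, IFNK, IFNW1, IFNG and IFNL1, clone 2 listed IFNW1 with a mean of 2.21 and clone 1 listed none. Other interferon genes were not looked for. CXCL10, a chemokine strongly induced by interferons, was listed in neither table. A gene that is not listed has no value here, and a level below detection is not told apart from a gene left out by the authors.

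The rest of the pathway was described by a list of 52 genes that includes these. Of them 44 were listed in clone 2 and 40 in clone 1, and 37 reached a mean of 10 in clone 2 and 38 in clone 1. Per kb, 29 were above the 50th percentile in clone 2 and 25 in clone 1. The highest was LY6E, at 2877 per kb in clone 2 and 2436 per kb in clone 1. LGALS3BP followed, at 1056 per kb in clone 2 and 861 per kb in clone 1. MYD88, an adaptor of Toll-like receptors, came next, at 933 per kb in clone 2 and 744 per kb in clone 1. Of the 37 genes with a ratio between clones, 0 were above 1 and 0 below -1, against the 0.848% and 0.69% of all genes, with a median of 0.03 and a range from -0.96 (GBP1) to 0.82 (IRF8).

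JAK1 and TYK2, the kinases bound to the receptor chains, stood above the median of all genes per kb in both clones. JAK1 had a mean of 2727 in clone 2 and 2024 in clone 1, and TYK2 had 2797 in clone 2 and 2109 in clone 1. TLR9, the sensor of CpG DNA in B cells, had 868 in clone 2 and 679 in clone 1. TLR7, the sensor of single-stranded RNA, had 8.70 in clone 2 and 46.2 in clone 1, and was below the limit of 10 in clone 2, so that it is not among the 37. IRF4, a factor of B-cell development that binds composite elements related to the ISRE, had 4093 in clone 2 and 3270 in clone 1.

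The markers of the line were present. All 14 B-cell precursor markers had a mean of at least 10 in both clones, with a median percentile per kb of 95.8 in clone 2 and 95.5 in clone 1. MME was the 1 marker of the 14 below the 50th percentile, with a mean of 67.0 in clone 2 and 67.7 in clone 1. Markers of plasmacytoid dendritic cells, known as strong producers of interferon, were low: CLEC4C was not listed, and LILRA4 had a mean of 7.71 in clone 2 and 9.21 in clone 1. The 4 T-cell markers were not listed in either clone. Of 5 myeloid markers, CSF1R had a mean of 768 in clone 2 and 615 in clone 1, while CD14, LYZ, MPO and ITGAM had at most 17.1 in clone 2 and 11.006 in clone 1. The NK-cell genes NCAM1 and NKG7 had 256 and 208 in clone 2, and 148 and 192 in clone 1. Of 4 stromal and epithelial markers, COL1A1 had 214 in clone 2 and 145 in clone 1. COL1A2 and EPCAM were listed in neither clone, and KRT8 had 1.16 in clone 2 and was not listed in clone 1. Every library came from cultures of the established line RCH-ACV and not from a mixed tissue. Why CSF1R, NCAM1, NKG7 and COL1A1 were read in this line was not tested.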

How the data were processed

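Total RNA of 12 libraries was made into stranded mRNA libraries. Per the submitters' processing notes, the tools were FastQC 0.10.1, BWA in versions 0.6.2-r126 and 0.7.7-r441, Picard 1.107, SAMtools, bedtools 2.19.0 and DESeq2, and the build was hg19; their roles, the gene annotation, the counter, its strand setting and its handling of multiply matching reads were not given in the sources used here. Overlapping and antisense genes are therefore uncertain.

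The value used is a signal, 1 column per table, in which the authors deposited each gene's size-factor-normalized count averaged over the 6 libraries of the clone. The remaining columns of both tables hold the authors' own comparison of resistant with sensitive cells (fold change, its error, statistic, p-values and labels) and were not used. For this reason the planned edgeR test per clone, its DESeq2 alternative and the leave-one-out fits were not run. No SD, p-value or interval was computed for the level of a gene. Intervals of the members' median, taken over genes, served only as ranges for the alternatives. Depth per library is unknown. Per-sample columns left unmapped numbered 0.

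Transcript lengths came from GENCODE release 29 and were found for 16408 of 16874 symbols (97.2%, 397 through another RefSeq symbol), all 48 members included. Promoter sequences were RefSeq windows (GRCh38.p14). The files use hg19, so no coordinates of the files were mixed with these. Date-like symbols (22 in clone 2, 21 in clone 1) stayed in the tables, and 2 rows sharing a symbol in each were left out. Clone ratios used a mean of at least 10 in both tables, the median of shared genes as scale and a log2 limit of 1. Shared transcript sequence was sought in stretches of 50 bases. This check, the median transcript length and the count over genes with 1 window were chosen after seeing the data. Protein identity was not computed.

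The members, roles and lists were chosen with earlier results of these data known. All members were to be named, with full values for the 3 highest per kb and the 3 lowest means of each table and for those beyond a log2 ratio of 1; genes outside this rule carry values to complete their role. TLR7, TLR9, JAK1, TYK2 and IRF4 were named after their values were seen. Some genes of the other pathway list are not reported here by name. Alternatives were other low-value limits, lengths, scalings, a pseudocount of 1 and other motif searches. Scripts were tested on simulated data. Python 3.11.15, numpy 2.4.6, pandas 2.3.3, scipy 1.17.1 and matplotlib 3.10.9 were used.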

Additional observations from a re-analysis of the deposited data

How the results depend on the processing

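Of 29 alternatives computed, 23 left the value within the range set for it and 6 moved it. For medians the range was an interval taken over the member genes. For the percentile it was 38.6 to 51.6 in clone 2 and 33.1 to 49.0 in clone 1. For the ISRE share it was the binomial interval, 42.1 to 75.2%. These ranges are wide and take the genes as independent draws, so the tally does not show that the values are stable. With the median of all genes as the limit in place of 10, 22 members were above it in clone 2 and 19 in clone 1, instead of 46 in each. With genes of a mean of at least 10 only, the median percentile of 46 members was 38.5 in clone 2, instead of 47.5 for 48 members, and 38.1 in clone 1. Without scaling, the median log2 ratio of clone 2 over clone 1 was 0.34 instead of -0.02, since the shift of 0.37 shared by all genes stays in. Without a limit on low values, 2 members passed a log2 ratio of 1 instead of 0, both lower in clone 2: OASL at -1.39 and IFI44L at -1.04. Over all genes this setting put 1.37% above 1 and 1.68% below -1. On the strand of the gene alone, 40.5% of members held an ISRE core instead of 59.5%, and 2.09% of all genes. Per kb of coding length the median percentile was 40.2 in clone 2 and 35.3 in clone 1, which counted as within the range. A search for the shorter core GAAA, any 2 bases, GA also counted as within the range, at 64.9% of members. Over all genes with a window, however, its share was 23.9% instead of 4.38%. No paired analysis was possible because the value used is 1 mean per clone, with no value for each library, and for the same reason no library could be left out. Depth per library is unknown, and no replicate spread was computed, since the comparison columns were not used.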

Other observations

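Genes outside the list that carry an ISRE core in a RefSeq promoter window were looked at in the same tables. They numbered 465 in clone 2 and 434 in clone 1. Their median percentile per kb was 49.7 in clone 2 and 50.5 in clone 1, against 53.1 in clone 2 and 52.3 in clone 1 for all table genes with a window. Above the 75th percentile were 26.5% of them in clone 2 and 26.0% in clone 1, against 26.7% of all such genes in clone 2 and 26.3% in clone 1. No test was run on these differences.

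IRF8 and GBP1, outside the list of members, had the largest differences between the clones among the 37 other pathway genes with a ratio. IRF8, a factor of B-cell and myeloid development, had a mean of 485 in clone 2 and 212 in clone 1. GBP1, a GTPase induced mainly by interferon-γ, had a mean of 74.98 in clone 2 and 113 in clone 1. TLR7 had 8.70 in clone 2 and 46.2 in clone 1. With 1 mean per clone none of these can be tested.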
